A study of Homo sapiens with 4 samples.

Results

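The genes described here are 10 regulators of the G1 phase of the cell cycle: the D-type cyclins CCND1, CCND2 and CCND3, the E-type cyclins CCNE1 and CCNE2, the CIP/KIP inhibitors CDKN1A, CDKN1B and CDKN1C, and the INK4 inhibitors CDKN2A and CDKN2B. They were chosen by symbol, and all 10 were found among the 22494 features of the count and FPKM tables. RNA sequencing of poly(A) RNA had been done on 4 libraries from RL-95-2 and HEC-1-A, both established human endometrial cancer cell lines. Each line gave 1 library from cells transfected with the tRF-20-S998LO9D mimic, a synthetic copy of a fragment of a transfer RNA, and 1 from cells given the negative control of that mimic. All cells were therefore transfected with a small RNA, and neither dose nor time after transfection is given in the labels. A transfected mimic raises a fragment from outside the cell and need not match what the cell makes itself.

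Cells pass from G1 into DNA synthesis when cyclin-dependent kinases (CDKs) phosphorylate the retinoblastoma protein and free E2F transcription factors. D-type cyclins carry growth signals by activating CDK4 and CDK6, and E-type cyclins then activate CDK2. INK4 proteins bind CDK4 and CDK6 and keep D-type cyclins off them, whereas CIP/KIP proteins bind cyclin and kinase together and block CDK2 above all. CDKN1A encodes p21, CDKN1B encodes p27, and CDKN1C encodes p57, the product of an imprinted gene. In endometrial cancer the pathway is known for CCNE1 amplification in serous tumours.

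Total counts per library ran from 33575882 to 46220053. Levels of a gene across libraries are given as CPM, counts scaled to library size and by TMM factors, which set aside genes of extreme ratio. Levels of different genes are compared only as the authors' FPKM, which is per transcript length. Because each line had 1 library per transfection, no difference within a line has a replicate check, and its 95% interval covers counting error only. The libraries are bulk RNA, so fewer cells making a transcript and less RNA per cell cannot be told apart. A gene that averaged 1 CPM or more in a line is called measured there. All 5 of the 5 epithelial markers EPCAM, KRT8, KRT18, KRT19 and CDH1 were measured in both lines. Their sum was 3369 CPM with the mimic and 1871 CPM with the control in RL-95-2, and 905 CPM with the mimic and 1053 CPM with the control in HEC-1-A. KRT8 held most of the RL-95-2 difference, at 1444 CPM with the mimic and 388 CPM with the control (log2 ratio 1.90), and 4 of the 5 were above 0 there. EPCAM was the lowest in RL-95-2, at 139 CPM with the mimic and 162 CPM with the control, and in HEC-1-A the ratios ran from -0.34 for KRT19 to 0.045 for CDH1. Of 6 Müllerian markers, 3 were measured in RL-95-2 (sum 233 CPM with the mimic and 308 CPM with the control) and 4 in HEC-1-A (374 CPM with the mimic and 359 CPM with the control in HEC-1-A), and SOX17 had 0 counts in every library. Their log2 ratios ran from -0.42 for PAX8 to 0.15 for HOXA10 in RL-95-2 and from -0.82 for HOXA11 to 0.086 for PAX8 in HEC-1-A. Of 7 blood cell markers, 1 (CD68, 4.93 CPM with the mimic and 7.51 CPM with the control in RL-95-2) was measured in RL-95-2 and 0 in HEC-1-A. Of 5 endothelial markers, 1 (CDH5, 24.5 CPM with the mimic and 14.0 CPM with the control in RL-95-2) was measured in RL-95-2 and 0 in HEC-1-A, and 2 of 6 stromal markers were measured in each line. Summed over the measured stromal markers, RL-95-2 had 58.4 CPM with the mimic and 80.6 CPM with the control, and HEC-1-A had 7.75 CPM with the mimic and 3.86 CPM with the control, while COL1A2 and DCN had 0 counts throughout. These markers were COL1A1 (log2 ratio -0.47) and COL3A1 (-0.41) in RL-95-2, and COL1A1 (1.10) and PDGFRB (0.57) in HEC-1-A. The part of these markers in the results below was not tested.

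The promoters of CDKN1A and CCNE1, an inhibitor and a cyclin gene with log2 ratios of opposite sign in RL-95-2, are printed here. No promoter was matched for CDKN1C and CCNE2, whose ratios also had opposite signs there. Both CDKN2A promoters are printed too, because the CDKN2A count merges transcripts from 2 starts. Each stretch runs from 250 bases before to 50 bases after a transcript start and comes from RefSeq (GRCh38.p14). Capitals mark GGGCGG or its reverse complement, the GC box bound by SP1-type factors. CDKN1A lies on the plus strand at chr6:36678464-36678763, CCNE1 on the plus strand at chr19:29811741-29812040, and the CDKN2A promoters on the minus strand at chr9:21974808-21975107 and chr9:21995275-21995574. The CDKN2A start at the lower coordinates gives the p16INK4a transcript and the one at the higher coordinates gives the ARF transcript.
CDKN1A: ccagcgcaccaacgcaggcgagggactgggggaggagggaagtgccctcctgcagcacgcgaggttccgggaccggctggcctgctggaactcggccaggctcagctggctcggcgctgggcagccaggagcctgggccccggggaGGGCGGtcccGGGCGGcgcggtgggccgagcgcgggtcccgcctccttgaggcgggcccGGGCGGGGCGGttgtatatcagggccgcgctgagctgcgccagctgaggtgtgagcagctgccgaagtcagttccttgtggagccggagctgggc
CCNE1: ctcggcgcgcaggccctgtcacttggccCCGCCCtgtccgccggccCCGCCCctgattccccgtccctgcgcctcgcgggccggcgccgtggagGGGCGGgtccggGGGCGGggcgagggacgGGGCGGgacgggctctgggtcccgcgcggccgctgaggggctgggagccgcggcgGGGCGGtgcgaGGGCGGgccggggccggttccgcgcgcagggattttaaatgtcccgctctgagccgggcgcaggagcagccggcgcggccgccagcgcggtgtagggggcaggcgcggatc
CDKN2A, p16INK4a start: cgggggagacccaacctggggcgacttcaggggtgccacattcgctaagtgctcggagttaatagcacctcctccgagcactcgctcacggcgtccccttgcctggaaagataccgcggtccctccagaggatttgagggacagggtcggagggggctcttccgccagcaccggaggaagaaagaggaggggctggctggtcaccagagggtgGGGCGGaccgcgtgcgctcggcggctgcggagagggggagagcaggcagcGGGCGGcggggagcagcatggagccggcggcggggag
CDKN2A, ARF start: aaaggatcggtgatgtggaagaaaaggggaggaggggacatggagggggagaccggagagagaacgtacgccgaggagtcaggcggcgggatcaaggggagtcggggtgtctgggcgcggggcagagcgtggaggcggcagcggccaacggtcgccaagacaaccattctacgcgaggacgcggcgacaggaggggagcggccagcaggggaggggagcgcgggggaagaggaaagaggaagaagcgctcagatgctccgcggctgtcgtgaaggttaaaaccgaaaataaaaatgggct

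The GC box letters occur in 45.0% of the 35116 promoters of that table. There were 4 matches in the CDKN1A promoter, 7 in that of CCNE1, 2 at the p16INK4a start and 0 at the ARF start. Promoters were matched for 6 of the 10 genes, 9 promoters in all, and among the others CDKN1B had 1 match, CDKN2B 2, and the 3 CCND3 promoters 0, 4 and 5. GC content was 74.3% for CDKN1A and 81.0% for CCNE1, against a median of 58.7% over all promoters. Letters of 6 other motifs were searched on both strands, with no match in any of the 9 promoters. They were TTTNNCGC for E2F factors (in 6.89% of all promoters), TATAAA for the TATA box (11.5%), CACGTG for MYC-type factors (7.26%), TGANTCA for AP-1 (7.71%), TGACGTCA for CREB-type factors (1.85%) and TGATGNAA for ATF4 with a C/EBP partner (3.62%). A match or its lack describes these letters in this window and nothing about binding.

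In RL-95-2 cells given the mimic, CDKN1A and CDKN1C mRNA were lower than with the control, and both E-type cyclin mRNAs were about 2-fold higher. CDKN1A was 6.01-fold lower and CDKN1C 2.77-fold lower, while CCNE2 was 2.02-fold higher and CCNE1 1.96-fold higher. In HEC-1-A none of these genes differed by 2-fold, and the signs of all 4 were the other way round. A measured gene that differed by 2-fold or more is called apart. In RL-95-2, 2 of 10 genes were lower by that rule, against 6.52% of 13151 genes, and 1 of 10 was higher, against 4.71%. In HEC-1-A, 0 of the 9 measured genes were higher and 0 lower, against 0.871% and 0.239% of 12981 genes. At counts this small a share says little about the group, and CCNE1 and CCNE2 lie at the threshold. The same shares over all genes are the background for the counts of genes apart in the lists below. Scaling by library total placed 2 genes above it and RLE size factors placed 0, with CCNE1 at a log2 ratio of 1.10 by library total and 0.95 by RLE, and CCNE2 at 1.14 by library total and 0.99 by RLE.

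**Figure D1:**
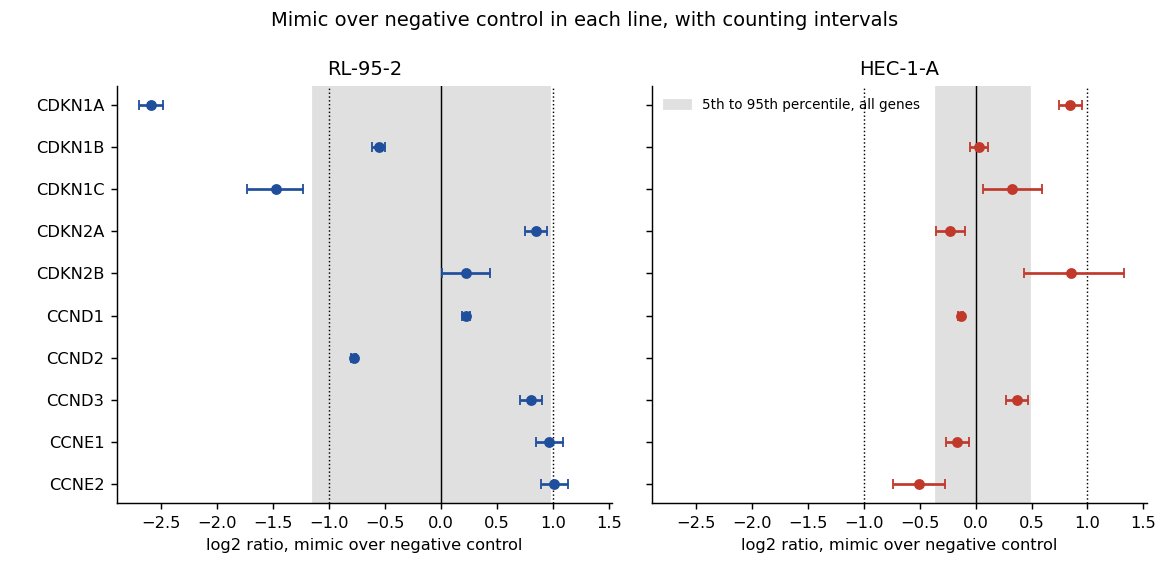
Log2 ratio of mimic over negative control (x axis) for each gene in RL-95-2 (left) and HEC-1-A (right), as TMM-scaled CPM with a prior count of 2. Bars are exact 95% counting intervals, grey bands the 5th to 95th percentile of all measured genes, and dotted lines 2-fold. CDKN1A and CDKN1C lie left of the band in RL-95-2, CCNE2 at 1.01 lies at its right edge, and in HEC-1-A CDKN1A and CDKN2B lie right of the band and CCNE2 left of it. CCND2 is not drawn in HEC-1-A, where it had 2 counts per library.

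Among the inhibitors, CDKN1A (p21; ENSG00000124762, chromosome 6, 36676460 to 36687339, GRCh38) differed most. RL-95-2 had 18.7 CPM of CDKN1A with the mimic (924 counts) and 113 CPM with the control (4406 counts), a log2 ratio of -2.59 (interval -2.69 to -2.49). HEC-1-A had 57.3 CPM with the mimic (2563 counts) and 31.9 CPM with the control (1056 counts), a log2 ratio of 0.84 (0.74 to 0.95). The RL-95-2 control was thus the highest of the 4 libraries and the RL-95-2 mimic library the lowest, with both HEC-1-A libraries between them. In RL-95-2 only 0.578% of genes had a lower ratio, and in HEC-1-A 1.40% had a higher one. DINOL, a non-coding RNA on the other strand that is not among the counted features, shares 146 exon bases with CDKN1A, 4.8% of its exon bases.

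CDKN1C (p57; ENSG00000129757, chromosome 11, 2883213 to 2885773) had the same pattern at a lower level. RL-95-2 had 3.94 CPM with the mimic (194 counts) and 10.99 CPM with the control (429 counts), a log2 ratio of -1.47 (-1.73 to -1.23). HEC-1-A had 7.08 CPM with the mimic (317 counts) and 5.64 CPM with the control (187 counts), a log2 ratio of 0.32 (0.06 to 0.60). Here too the RL-95-2 libraries were the highest and the lowest of the 4, and 2.84% of genes in RL-95-2 had a lower ratio. The transcript length implied by counts and FPKM differed in HEC-1-A, at 1955.5 bases with the mimic and 1735.8 with the control. The HEC-1-A difference was 0.10 on log2(FPKM + 1) and 0.13 on log2(FPKM + 0.1).

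CDKN1B (p27; ENSG00000111276, chromosome 12, 12715058 to 12722371) is known to be controlled largely through protein turnover. Its level was 84.8 CPM with the mimic and 125 CPM with the control in RL-95-2, a log2 ratio of -0.56 (-0.62 to -0.50), and 69.1 CPM with the mimic and 67.6 CPM with the control in HEC-1-A, a log2 ratio of 0.031 (-0.05 to 0.11). The HEC-1-A interval spans 0, so no difference was detectable there at this depth, and in RL-95-2 16.5% of genes had a lower ratio.

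Unlike the CIP/KIP genes, both INK4 genes among the 10 had a ratio above 0 in RL-95-2. CDKN2A (ENSG00000147889, chromosome 9, 21967753 to 21995301) had 59.4 CPM with the mimic (2930 counts) and 33.0 CPM with the control (1287 counts) in RL-95-2, a log2 ratio of 0.85 (0.75 to 0.95). HEC-1-A had 22.7 CPM with the mimic (1015 counts) and 26.5 CPM with the control (879 counts), a log2 ratio of -0.23 (-0.36 to -0.09). The RL-95-2 mimic library was the highest of the 4, and 7.003% of genes in that line had a higher ratio. Which of the p16INK4a and ARF transcripts the reads came from is not resolved by a count per gene. The antisense RNA CDKN2B-AS1, not among the counted features, shares 341 exon bases (7.9%) with CDKN2A, and the strand setting of the counting is not given.

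CDKN2B (p15; ENSG00000147883, chromosome 9, 22002903 to 22009363), known as a target of TGF-beta signalling, was low in both lines. RL-95-2 had 8.93 CPM with the mimic and 7.64 CPM with the control, a log2 ratio of 0.22 (0.01 to 0.44). HEC-1-A had 3.37 CPM with the mimic (151 counts) and 1.84 CPM with the control (61 counts), a log2 ratio of 0.86 (0.44 to 1.33). Both mimic libraries were above their controls. At these levels the ratio leans on the scale used: on log2(FPKM + 1) the HEC-1-A difference was 0.28.

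**Figure D2:**
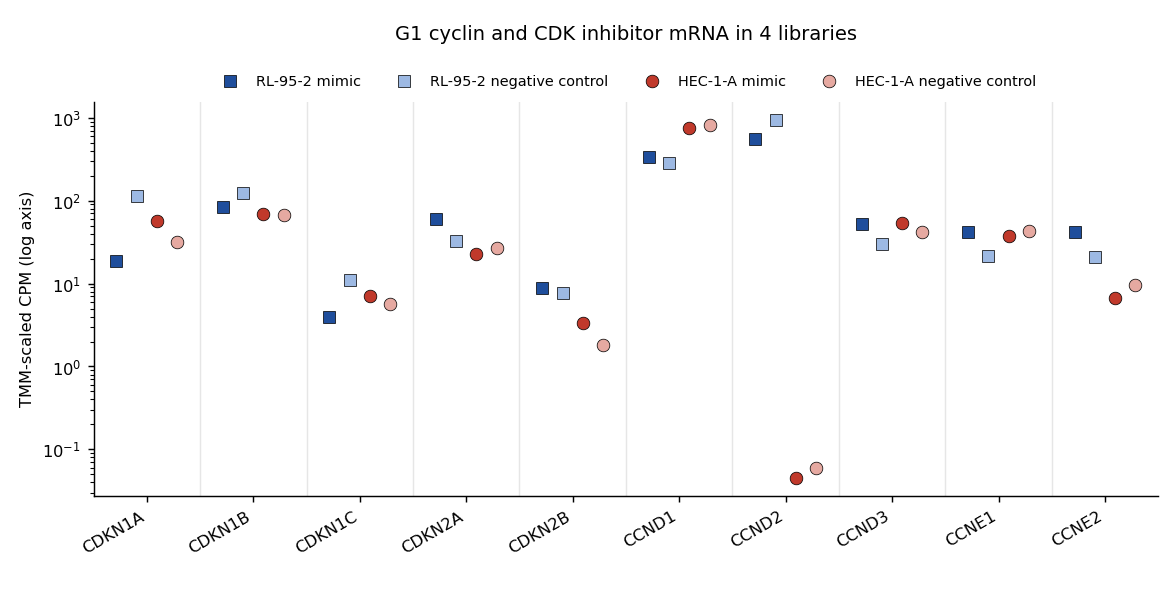
TMM-scaled CPM (log axis) of each gene in the 4 libraries, 1 point per library, with the mimic library left of its control. CDKN1A and CDKN1C have the RL-95-2 control on top and the RL-95-2 mimic library at the bottom. CCND2 lies at 553 CPM with the mimic and 949.6 CPM with the control in RL-95-2, and under 0.1 CPM in both HEC-1-A libraries.

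Transcripts of the E-type cyclins were more abundant with the mimic in RL-95-2 and less abundant with it in HEC-1-A. CCNE1 (ENSG00000105173, chromosome 19, 29811898 to 29824308) had 41.6 CPM with the mimic (2050 counts) and 21.2 CPM with the control (829 counts) in RL-95-2, a log2 ratio of 0.97 (0.85 to 1.09). HEC-1-A had 37.9 CPM with the mimic and 42.5 CPM with the control, a log2 ratio of -0.16 (-0.27 to -0.06). The RL-95-2 control stood apart as the low library, and the other 3 lay between 37.9 and 42.5 CPM. In RL-95-2, 5.16% of genes had a higher ratio.

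CCNE2 (ENSG00000175305, chromosome 8, 94879770 to 94896678) had 42.4 CPM with the mimic (2088 counts) and 21.0 CPM with the control (819 counts) in RL-95-2, a log2 ratio of 1.01 (0.90 to 1.13). HEC-1-A had 6.72 CPM with the mimic (301 counts) and 9.57 CPM with the control (317 counts), a log2 ratio of -0.51 (-0.74 to -0.28). Both RL-95-2 libraries lay above both HEC-1-A libraries, and in RL-95-2 4.51% of genes had a higher ratio.

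INTS8, a gene on the other strand, shares 1629 exon bases with CCNE2, 37.0% of the exon bases of CCNE2. INTS8 had 147 CPM with the mimic and 148 CPM with the control in RL-95-2 (log2 ratio -0.02), and 45.5 CPM with the mimic and 42.0 CPM with the control in HEC-1-A (0.12). INTS8 thus differed little in either line, and reads of the 2 genes in the shared bases could not be separated if counting ignored strand. The transcript length implied by counts and FPKM also differed between libraries for CCNE2, at 2830 bases with the mimic and 3526 with the control in HEC-1-A, and at 3176 bases with the mimic and 3340 with the control in RL-95-2. On log2(FPKM + 0.1) the HEC-1-A difference was -0.20, and on log2(FPKM + 1) it was -0.15.

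CCND1 and CCND2 differed more between the lines than between transfections, whereas CCND3 did not. CCND2 (ENSG00000118971, chromosome 12, 4273772 to 4305350) had 553 CPM with the mimic (27249 counts) and 949.6 CPM with the control (37063 counts) in RL-95-2, a log2 ratio of -0.78 (-0.80 to -0.76). HEC-1-A had 2 counts in each library, too few for a ratio of mimic over control. AC008012.1, a protein-coding gene on the same strand that is not among the counted features, shares 989 exon bases (13.8%) with CCND2. The RL-95-2 level exceeded that of HEC-1-A by 13.6 on the log2 scale in the mimic libraries (interval 11.7 to 16.6) and by 13.9 in the controls (12.1 to 16.99).

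CCND1 (ENSG00000110092, chromosome 11, 69641087 to 69654474), the cyclin most often raised by mitogens and by beta-catenin, was higher in both HEC-1-A libraries than in both RL-95-2 libraries. RL-95-2 had 335 CPM with the mimic and 287 CPM with the control, a log2 ratio of 0.22 (0.19 to 0.26), and HEC-1-A had 745 CPM with the mimic and 817 CPM with the control, a log2 ratio of -0.13 (-0.16 to -0.11). Both differences were small against other genes, with 34.1% of genes higher in RL-95-2 and 22.5% lower in HEC-1-A. LTO1, on the other strand, shares 497 exon bases (10.3%) with CCND1, and its older symbol ORAOV1 had log2 ratios of -0.19 in RL-95-2 and -0.046 in HEC-1-A. CCND3 (ENSG00000112576, chromosome 6, 41934933 to 42050357) had 52.9 CPM with the mimic and 30.3 CPM with the control in RL-95-2, a log2 ratio of 0.80 (0.71 to 0.91). HEC-1-A had 53.8 CPM of CCND3 with the mimic and 41.6 CPM with the control, a log2 ratio of 0.37 (0.28 to 0.47). Both mimic libraries held more CCND3 than their controls, and about 8% of genes had a higher ratio in either line (8.01% in RL-95-2, 8.11% in HEC-1-A).

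Per transcript length, the D-type cyclins were the most abundant class in every library, with sums between 173 and 198 FPKM. Summed FPKM was 182 with the mimic and 198 with the control in RL-95-2, and 173 with the mimic and 186 with the control in HEC-1-A. Their makeup was not equal: in RL-95-2 CCND2 gave 45.1% of that sum with the mimic and 64.5% with the control, CCND1 gave 41.0% with the mimic and 29.2% with the control, and CCND3 gave 14.0% with the mimic and 6.39% with the control. In HEC-1-A CCND1 gave 86.9% with the mimic and 90.4% with the control. CCND2 at 81.9 FPKM and CCND1 at 74.5 FPKM were close in the RL-95-2 mimic library, whereas the control had 128 FPKM of CCND2 and 57.7 FPKM of CCND1. With 1 library each, the order of neighbours such as these has no error to be judged by.

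CIP/KIP transcripts summed to 40.6 FPKM with the mimic and 91.0 FPKM with the control in RL-95-2, and to 48.7 FPKM with the mimic and 38.5 FPKM with the control in HEC-1-A. In RL-95-2 CDKN1A gave 8.12 FPKM of that sum with the mimic and 44.6 FPKM with the control, and CDKN1B gave 30.3 FPKM with the mimic and 40.5 FPKM with the control. E-type cyclins summed to 34.1 FPKM with the mimic and 15.3 FPKM with the control in RL-95-2 and to 19.8 FPKM with the mimic and 21.9 FPKM with the control in HEC-1-A. CCNE2 gave 41.7% of the RL-95-2 sum with the mimic and 40.2% with the control, so the makeup of this class was nearly the same in both. The ratio of E-type cyclin to CIP/KIP FPKM was 0.840 with the mimic and 0.168 with the control in RL-95-2, and 0.406 with the mimic and 0.567 with the control in HEC-1-A. CDKN2A and CDKN2B, the INK4 genes among the 10, summed to 49.1 FPKM with the mimic and 26.3 FPKM with the control in RL-95-2. In HEC-1-A they summed to 17.1 FPKM with the mimic and 19.8 FPKM with the control, and nearly all of each sum was CDKN2A. The FPKM sums, here and for the D-type cyclins, are not TMM-scaled. On log2(FPKM + 1) the median log2 ratio of all measured genes in RL-95-2 was 0.11, beside 0.00 as TMM-scaled CPM. The INK4 sums also leave out CDKN2C and CDKN2D, which are INK4 genes. In RL-95-2 CDKN2C had 16.3 FPKM with the mimic and 4.35 FPKM with the control, and CDKN2D had 5.89 FPKM with the mimic and 7.84 FPKM with the control. In HEC-1-A CDKN2C had 1.37 FPKM with the mimic and 1.43 FPKM with the control, and CDKN2D had 5.21 FPKM with the mimic and 3.52 FPKM with the control.

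**Figure D3:**
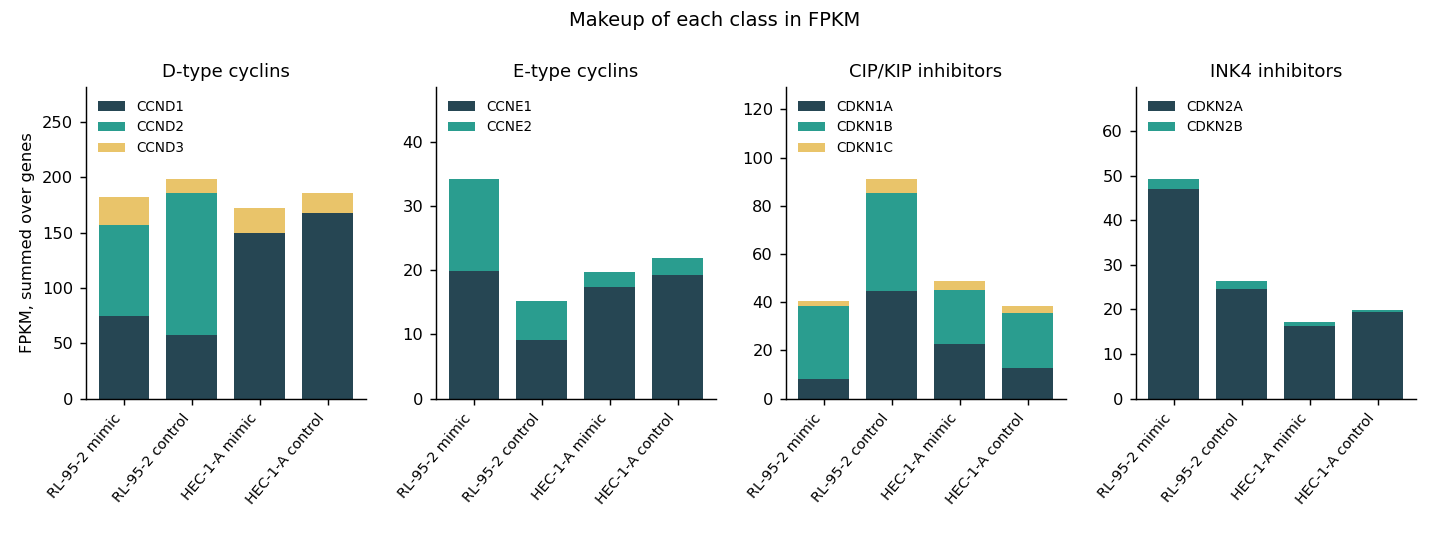
Authors' FPKM (y axis, from 0, with its own scale in each panel) of the 10 genes, stacked by class, in the 4 libraries. The mimic library is left of its control. The D-type sums are close in height but hold little CCND2 in HEC-1-A, and the RL-95-2 control has the tallest CIP/KIP bar, 91.0 FPKM, and the shortest E-type bar, 15.3 FPKM.

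Over both lines together, edgeR's quasi-likelihood test with the line as a block called none of the 10 genes, against 0% of 15957 genes called at all (0 genes). At an unadjusted p under 0.05 it found 167 of the 15957 genes, a smaller share than 0.05 itself. DESeq2 called 2 genes, none of the 10, and limma-voom called 0. CCND3 had a log2 fold change of 0.59 (SE 0.24, unadjusted p = 0.048, adjusted p = 0.9999 by edgeR, higher in 2 of 2 lines). CDKN2B, also higher in 2 of 2 lines, had 0.54 (SE 0.41, adjusted p = 0.9999 by edgeR). For CDKN1A the fold change of -0.87 had an SE of 0.82, and the lines had opposite signs. With 1 residual degree of freedom, a missed threshold does not show that the genes were alike.

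The lines themselves differed in most of these genes, and the order of the lines depended on the transfection for several. As the log2 ratio of RL-95-2 over HEC-1-A, CDKN1A was -1.61 between the mimic libraries and 1.82 between the controls, and CDKN1C was -0.84 between the mimic libraries and 0.96 between the controls. Both inhibitors were thus lower in RL-95-2 than in HEC-1-A with the mimic and higher with the control. CCNE1 was 0.13 between the mimic libraries and -0.999 between the controls, and CCND3 was -0.02 between the mimic libraries and -0.46 between the controls, so these cyclins lay closer together with the mimic. CDKN2A was 1.39 between the mimic libraries and 0.31 between the controls, and CCNE2 was 2.65 between the mimic libraries and 1.13 between the controls, so these lay farther apart with the mimic. CDKN2B, at 1.39 with the mimic and 2.02 with the control, was higher in RL-95-2 in both, and CCND1, at -1.15 with the mimic and -1.51 with the control, was lower there in both. Each of these is a difference between 2 single libraries and was not tested.

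In FPKM, the order within the CIP/KIP class also depended on the library. CDKN1B led in the RL-95-2 mimic library with 30.3 FPKM, ahead of CDKN1A at 8.12 FPKM, while in the RL-95-2 control CDKN1A had 44.6 FPKM and CDKN1B 40.5 FPKM. In HEC-1-A they were close to each other with the mimic, CDKN1A at 22.7 FPKM and CDKN1B at 22.4 FPKM, and in the control CDKN1B had 22.5 FPKM and CDKN1A 12.9 FPKM. CDKN1C was last in every library, at 2.19 FPKM with the mimic and 5.84 FPKM with the control in RL-95-2, and 3.53 FPKM with the mimic and 3.21 FPKM with the control in HEC-1-A.

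Among the kinases these proteins act on, differences were small in both lines. CDK2, the partner of E-type cyclins, had 115 CPM with the mimic and 93.4 CPM with the control in RL-95-2, and 105 CPM with the mimic and 88.3 CPM with the control in HEC-1-A. CDK4 had 202 CPM with the mimic and 186 CPM with the control in RL-95-2 and 226 CPM with the mimic and 216 CPM with the control in HEC-1-A, and CDK6 had 93.1 CPM with the mimic and 111 CPM with the control in RL-95-2 and 24.98 CPM with the mimic and 20.9 CPM with the control in HEC-1-A. Of 7 genes for G1 kinases, CDC25A and the CDK-activating kinase, 0 were apart in either line. The 3 subunits of the activating kinase were each lower in the RL-95-2 mimic library, with CDK7 lowest at a log2 ratio of -0.79, and CDC25A, the phosphatase that activates CDK2, was highest at 0.39. In HEC-1-A all 7 were above 0, beside 6957 of all 12981 measured genes, and lay between 0.07 for CDK4 and 0.28 for CDK7.

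Further inhibitors gave 1 gene apart. CDKN2C, which encodes the INK4 protein p18, had 37.7 CPM with the mimic and 11.9 CPM with the control in RL-95-2, a log2 ratio of 1.66, and 3.62 CPM with the mimic and 3.26 CPM with the control in HEC-1-A, a log2 ratio of 0.15. CDKN2D, the INK4 gene for p19, had log2 ratios of -0.44 in RL-95-2 and 0.50 in HEC-1-A.

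E2F1, the factor that drives S-phase genes and is itself an E2F target, had 57.9 CPM with the mimic and 26.9 CPM with the control in RL-95-2, a log2 ratio of 1.11. Its level in HEC-1-A was 66.2 CPM with the mimic and 66.4 CPM with the control. RB1, the retinoblastoma gene, had 99.8 CPM with the mimic and 106 CPM with the control in RL-95-2 and 174 CPM with the mimic and 172 CPM with the control in HEC-1-A. Of 13 pocket protein and E2F genes, E2F1 was the 1 gene apart in RL-95-2 and 0 were apart in HEC-1-A. TFDP2, an E2F partner, was lowest in both, at -0.87 in RL-95-2 and -0.32 in HEC-1-A, and E2F2 was highest in HEC-1-A at 0.17.

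Genes that E2F factors switch on at the G1 to S boundary were mostly above 0 in RL-95-2. Of 19 such genes, 18 had a ratio above 0, beside 6591 of all 13151 measured genes, and the median was 0.77, beside 0.00 over all genes. At least 2-fold higher were 2 of them (MCM5 at 1.58 and MCM6 at 1.07), beside 4.71% of all genes. CDC6, the licensing factor, was the 1 gene below 0, at -0.15. In HEC-1-A, 14 of 19 were below 0, beside 6024 of all 12981 measured genes, and the median was -0.10, beside 0.02 over all genes. There 0 were apart, with MCM4 lowest at -0.39 and TK1 highest at 0.16. Cyclins of S, G2 and M phase with CDK1 had medians of 0.26 in RL-95-2 and 0.12 in HEC-1-A, with 5 of 5 above 0 in each line and 0 apart. Of all measured genes, 6591 of 13151 were above 0 in RL-95-2 and 6957 of 12981 in HEC-1-A. The ratios ran from 0.053 for CCNB2 to 0.72 for CCNF in RL-95-2 and from 0.077 for CCNF to 0.28 for CCNA2 in HEC-1-A.

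Genes for the turnover of these proteins had medians of -0.02 in RL-95-2 and -0.06 in HEC-1-A, and 0 of 14 were apart in either line. SKP2, the ubiquitin ligase subunit that targets p27, had 96.7 CPM with the mimic and 54.6 CPM with the control in RL-95-2, and 25.2 CPM with the mimic and 30.4 CPM with the control in HEC-1-A. SKP1 was highest in both lines, at 0.97 in RL-95-2 and 0.12 in HEC-1-A, and AMBRA1, which acts in D-type cyclin turnover, was lowest in RL-95-2 at -0.62.

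**Figure D4:**
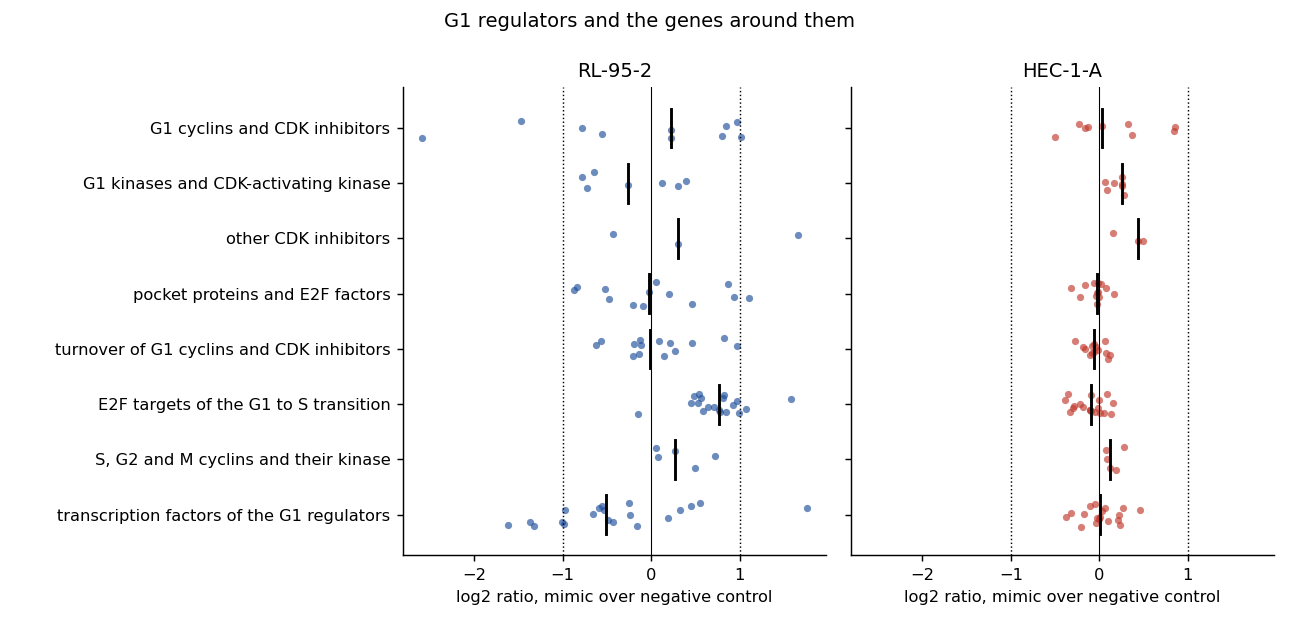
Log2 ratio of mimic over negative control (x axis) for the 10 genes (top row) and the genes of 7 further lists, in RL-95-2 (left) and HEC-1-A (right). Each point is 1 measured gene, spread vertically for sight, black bars are medians and dotted lines mark 2-fold. The E2F targets sit right of 0 in RL-95-2 (median 0.77), and the transcription factors there reach from -1.62 for KLF4 to 1.76 for TP73.

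Among 22 transcription factors known to act on these genes, 20 were measured in RL-95-2, with 4 at least 2-fold lower (6.52% of all measured genes were), 1 higher (4.71% of all) and a median of -0.51, beside 0.00 over all genes. KLF4, an activator of CDKN1A, had 73.3 CPM with the mimic and 225 CPM with the control in RL-95-2 (log2 ratio -1.62). Also lower were JUN (-1.37), MYC (-1.32), which represses CDKN1A and drives cyclin genes, and FOXO3 (-1.004), an activator of CDKN1B. TP73 was higher, with 17.9 CPM with the mimic and 5.28 CPM with the control. In HEC-1-A 18 were measured and 0 were apart, from 0.46 for JUN to -0.37 for CBX7, a polycomb repressor of CDKN2A.

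Of 17 symbols listed as chromosomal neighbours, 13 were among the counted features and 9 were measured in each line. The list holds LTO1 under its newer and its older symbol, and only the older, ORAOV1, is among the counted features. CDKN1C lies in an imprinted cluster on chromosome 11, where SLC22A18 had 3.94 CPM with the mimic and 12.3 CPM with the control in RL-95-2, a log2 ratio of -1.64, and 67.9 CPM with the mimic and 66.0 CPM with the control in HEC-1-A. PHLDA2 had 24.6 CPM with the mimic and 40.3 CPM with the control in RL-95-2 and 51.5 CPM with the mimic and 38.8 CPM with the control in HEC-1-A, the same signs as CDKN1C in both lines. IGF2, expressed from the other parental copy than CDKN1C, had 61.5 CPM with the mimic and 25.6 CPM with the control in RL-95-2 and 0.313 CPM with the mimic and 0.423 CPM with the control in HEC-1-A. KCNQ1, a further gene of the cluster, had 3.06 CPM with the mimic and 1.21 CPM with the control in HEC-1-A and was under the 1 CPM minimum in RL-95-2. MTAP, beside CDKN2A on chromosome 9, had 79.9 CPM with the mimic and 103 CPM with the control in RL-95-2 and 126 CPM with the mimic and 132 CPM with the control in HEC-1-A. URI1, near CCNE1 on chromosome 19, had 74.6 CPM with the mimic and 89.5 CPM with the control in RL-95-2 and 109 CPM with the mimic and 120 CPM with the control in HEC-1-A. The neighbours of CCNE1 differed in sign in RL-95-2, where URI1 had a log2 ratio of -0.26, PLEKHF1 -0.93 and POP4 0.49, the last with the sign of CCNE1. In HEC-1-A URI1 had -0.14, PLEKHF1 -0.067 and POP4 0.027.

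The genes most like a member over the 4 libraries were found by the Euclidean distance between log2 CPM values centred on each gene's mean, among 10405 genes that averaged 5 CPM or more. Nearest to CDKN1A were LURAP1L (distance 0.53), ZFP36 (0.55) and HBEGF (0.55), with log2 ratios in RL-95-2 of -2.39, -2.10 and -2.09 and in HEC-1-A of 0.55, 0.35 and 0.30. Nearest to CDKN1C were RB1CC1 (0.11), ADGRG1 (0.12) and PRKCE (0.15), and nearest to CCNE2 were PLLP (0.12), MCM4 (0.15) and LHX2 (0.18). CDKN1A therefore had no neighbour as close as those of the other 2 genes. The values were centred but not scaled, so the distance also depends on how large a gene's differences were. Those of CDKN1A were the largest, so its distances do not show a more particular pattern. With 4 values per gene this likeness is a description.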

How the data were processed

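The labels gave each library its cell line and transfection. Both tables are the authors' own: raw counts per gene symbol, and FPKM, counts scaled to transcript length and depth. The submitters' processing notes name CASAVA, HISAT2 and the GRCh38 (hg38) genome, and the counter, its annotation and its use of strand were not given in the sources used here. Of 22494 features, 2963 had no count.

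Counts were tested over all genes with edgeR 4.0.16 (R 4.3.3): TMM scaling, its default low-count filter, and quasi-likelihood p-values adjusted by Benjamini-Hochberg (threshold 0.05). The cell line named in the labels pairs each mimic library with its control and entered as a block, leaving 1 residual degree of freedom (5.44 prior). The residual spread behind a p-value is thus how far the mimic over control ratios of the lines disagree, with library noise mixed in. The labels do not say whether libraries came from separate cultures, so the part of that noise that is technical is not known. Within a line, log2 ratios of TMM-scaled CPM (prior count of 2) carry exact 95% intervals (Clopper-Pearson on the 2 counts, counting error only) and no p-value. The procedure was tested on simulated data.

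Alternatives used DESeq2 1.42.0, limma 3.58.1, other scalings, filters, prior counts and thresholds, and log2(FPKM + 1) or log2(FPKM + 0.1). Positions, overlaps, GC content and length came from GENCODE release 29 (GRCh38), and promoters and gene symbols from RefSeq. Named genes were the 10 members, the highest and lowest gene of each list in each line, CDK2, CDK4, CDK6, RB1, E2F1, MTAP, genes a member's value turns on, and the 3 nearest patterns of each member that was apart and averaged 5 CPM or more. Other genes were named after their values were seen, and some items that the rule would name, among them 1 whole list, are not reported here. Members and lists were chosen with earlier results of these data known.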

Additional observations from a re-analysis of the deposited data

Results flagged for a closer look

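For 6 genes the log2 ratios of mimic over control had opposite signs in RL-95-2 and HEC-1-A, with both counting intervals clear of 0. The difference was not tested, since each line had 1 pair. The log2 ratio of RL-95-2 minus that of HEC-1-A was -3.43 for CDKN1A (-2.59 and 0.84), -1.80 for CDKN1C (-1.47 and 0.32) and 1.52 for CCNE2 (1.01 and -0.51). It was 1.13 for CCNE1 (0.97 and -0.16), 1.08 for CDKN2A (0.85 and -0.23) and 0.35 for CCND1 (0.22 and -0.13). On log2(FPKM + 0.1) the HEC-1-A value was nearer to 0 for CDKN1C (0.13) and CCNE2 (-0.20), with the same signs.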

How the results depend on the processing

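Over both lines, DESeq2 called 2 genes where edgeR called 0. Without the replicate block for the line, the CCND1 log2 fold change was -0.033 in place of 0.044, and edgeR called 0 genes. Leaving out a line leaves 1 library per transfection and a value with no test, and the range over both omissions equals the ratios of the lines. It ran from -2.59 to 0.84 for CDKN1A, from -0.56 to 0.031 for CDKN1B, from -1.47 to 0.32 for CDKN1C and from -0.23 to 0.85 for CDKN2A. For CCND1 it ran from -0.13 to 0.22, for CCNE1 from -0.16 to 0.97 and for CCNE2 from -0.51 to 1.01. In RL-95-2, the number of genes at least 2-fold higher was 0 with RLE size factors and 2 with scaling by library total, log2(FPKM + 1) or log2(FPKM + 0.1), in place of 1. At 1.5-fold 7 genes were apart there (4 higher, 3 lower), and 2 in HEC-1-A (2 higher). The share of all genes that passed 1.5-fold was not counted, so these numbers do not set the 10 genes off from the rest. The 5th and 95th percentiles of the log2 ratio over all measured genes were -1.14 and 0.98 in RL-95-2, and -0.36 and 0.49 in HEC-1-A. Scaling by library total moved the median log2 ratio of all genes in RL-95-2 to 0.13, and the FPKM scales to 0.11 and 0.14, so members sit that much higher there. Of 60 ratios in RL-95-2 under 6 alternatives, 0 changed sign but 23 fell outside the 95% counting interval, with a largest shift of 0.37. Of 54 in HEC-1-A, 2 changed sign, both of CDKN1B, whose interval spans 0, and 5 fell outside, with a largest shift of 0.57. Removing GC and length trends, chosen after seeing the data, gave CDKN1A -2.68, CDKN1C -1.59 and CCNE2 1.08 in RL-95-2, farther from 0 than before, and CDKN2A 0.69, CCND2 -0.72, CCND3 0.72 and CCNE1 0.90, nearer to 0. Depth limits CCND2 in HEC-1-A, with 2 counts per library, and CDKN2B there.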
